A study of Mus musculus with 6 samples.

Results

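Cadherins and synaptic adhesion molecules are cell-surface proteins, with their closest intracellular partners, that hold neighbouring cells together and align the sending and receiving sides of a synapse. In the table of sorted mouse cones, 74 of 9720 genes belonged to this set. They were chosen by gene symbol: cadherins, protocadherins, catenins, contactins and contactin-associated proteins, neurexins, neuroligins, the Lrrtm, Lrit, Lrfn, Elfn and Flrt leucine-rich repeat families, immunoglobulin-type molecules, LAR-type receptor phosphatases, teneurins, latrophilins, and the dystroglycan complex members Dag1, Egflam and Dmd. The photoreceptor cadherin Cdhr1 was left out by the rule. Of 169 annotated protein-coding mouse genes whose symbols match the rule, 96 had no row and were not analysed here, among them Cdh23 and Pcdh15. The gene ID of 1 member, Pcdhgb8, is not in the annotation, which holds that symbol under another ID as a polymorphic pseudogene.

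At the outer limiting membrane, cadherins bound to catenins join photoreceptors to Müller glia. At the cone pedicle, the synaptic terminal in the outer plexiform layer, neurexins, Elfn and Lrit proteins and the dystroglycan, pikachurin and dystrophin complex link the ribbon synapse to bipolar and horizontal cell processes, while clustered protocadherins give neurons combinations of surface labels used in self-recognition.

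RNA came from adult retinal cones sorted by their eGFP fluorescence, in 3 knockout and 3 control libraries, each made from 100 ng of RNA by directional poly(A) sequencing. Knockout mice were HRGPcre;Bmal1f/f;Z/EG, with 2 floxed copies of Bmal1, the circadian clock activator that the table lists as Arntl. Control mice were HRGPcre;Bmal1f/+;Z/EG, with 1 floxed copy, so their recombined cones keep 1 intact copy; the series' own description calls them wild type. Both groups carried the Cre driven by the human red/green pigment promoter, which is active in cones, and the Z/EG reporter that turns on eGFP where Cre has acted. All mice were C57BL/6 (with mixed background), kept on 12 h of light and 12 h of dark, and the labels give their age as postnatal day 60 to 80 and, in the same entry, as 2 to 6 months. How many animals made up a library, whether libraries came from separate animals and at what time of day tissue was taken are not stated. The p-values therefore reflect the variation among these 6 samples and nothing wider.

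All 10 cone markers were in the table and their FPKM (fragments per kilobase, normalized to the library, a level per transcript length) summed to between 5558 and 6578 in knockout libraries and between 3972 and 6821 in control libraries. The 14 rod markers summed to between 2528 and 3636 FPKM in knockout libraries and between 3010 and 3700 FPKM in control libraries, so rod RNA was present in both groups. Müller glia markers (7 of 12 in the table) summed to between 101 and 111 FPKM in knockout and between 91.8 and 120 FPKM in control libraries, and bipolar cell markers (10 of 11) to between 98.2 and 111 FPKM in knockout and between 87.9 and 125 FPKM in control libraries. Of the horizontal cell, microglia, and vascular and pigment epithelium lists, 1 of 7, 2 of 8 and 1 of 9 markers had rows. Each of these lists by itself summed to at most 21.1 FPKM in any library. That highest value was the horizontal cell marker Sept4 in control library 2. No tested marker of any list passed the test of genotype. Within those lists, the Müller glia markers Apoe, at 2.32 ± 0.621 FPKM in knockout and 4.06 ± 0.504 FPKM in control libraries, and Clu, at 18.6 ± 2.97 FPKM in knockout and 25.999 ± 1.17 FPKM in control libraries, were lower in every knockout library than in any control library (SD, n = 3 each). So was the bipolar marker Gng13, at 1.79 ± 0.542 FPKM in knockout and 4.28 ± 1.79 FPKM in control libraries. The adjusted p in limma was 0.771 for Apoe, 0.897 for Clu and 0.605 for Gng13. The other way, the cone marker Opn1sw and the rod markers Reep6, Nr2e3 and Cnga1 were higher in every knockout library than in any control library. Their adjusted p in limma lay between 0.649 and 0.960. Of all tested genes, 5.87% were lower and 3.52% higher in every knockout library. Control library 1 stood apart: its mean correlation over genes was 0.897 with knockout and 0.901 with the other control libraries, where the other libraries reached 0.917 to 0.953. It also held 21.1 FPKM of the neuronal marker Stmn2, against 0.1, 0.1 and 0.240 FPKM in knockout libraries and 0.195 and 0.668 FPKM in the other control libraries. Arntl itself was listed at 3.37, 2.28 and 3.48 FPKM in knockout libraries, against 2.9998, 2.596 and 3.27 FPKM in control libraries. That value covers the whole gene, and the sources used here do not name the floxed exons, so it does not check the genotype labels.

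No member passed the test of knockout against control. On log2(FPKM + 1), 63 members with a mean of at least 1 FPKM were tested and 0 were called, that is, had an adjusted p under 0.05 in limma, where 0.104% of all 8627 tested genes did (0.0464% higher and 0.058% lower in knockout); the smallest adjusted p of a member was 0.486, for Pcdh1. At an unadjusted p under 0.05 in limma there were 4 members, or 6.35%, against a background of 5.49%. Of these, Lrit2 was higher in knockout cones, where 1.53% of all genes were, and Pcdh1, Ptprs and Cdh4 were lower, where 3.96% were. These shares lie near the background. Without control library 1, 0 members were called and 8, or 12.7%, had an unadjusted p under 0.05, where 10.1% of all genes did. Library values below stand in the order of libraries 1 to 3 of each group.

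Values of the groups did not overlap for 8 members, or 12.7%, beside 9.39% of all tested genes. Lrit2, Pcdhga12 and Cdh2 were higher in every knockout library than in every control library, which is 4.76% of the members and 3.52% of all genes. Pcdh1, Ptprs, Cdh4, Pcdhgc5 and Cntn1 were lower in every knockout library, 7.94% of the members and 5.87% of all genes. Log2 differences of knockout minus control were positive for 32 members, or 50.8%, against 47.4% of all genes. Their median was 0.04, where that of all tested genes was -0.02. They ranged from -0.76 for Pcdh1 to 0.76 for Lrit2.

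The precision behind these values can be read from the intervals. For 51 of the 63 tested members the 95% interval lay within a log2 difference of 1 in either direction, which is 2-fold on the FPKM + 1 scale, and the same held for 85.4% of all tested genes. For 12 it reached further: Pcdha6, Pcdhgc3, Pcdhgc5, Pcdha11, Nrxn3, Pcdh1, Dmd, Elfn2, Lrit2, Cdh18, Ptprs and Cdh4. For those genes a 2-fold difference was not resolved in at least 1 direction. The median coefficient of variation of the tested members was 17.3% among knockout and 29.3% among control libraries, against 18.6% and 25.7% over all tested genes. The plot of differences by role shows how few of the intervals leave 0.

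**Figure D1:**
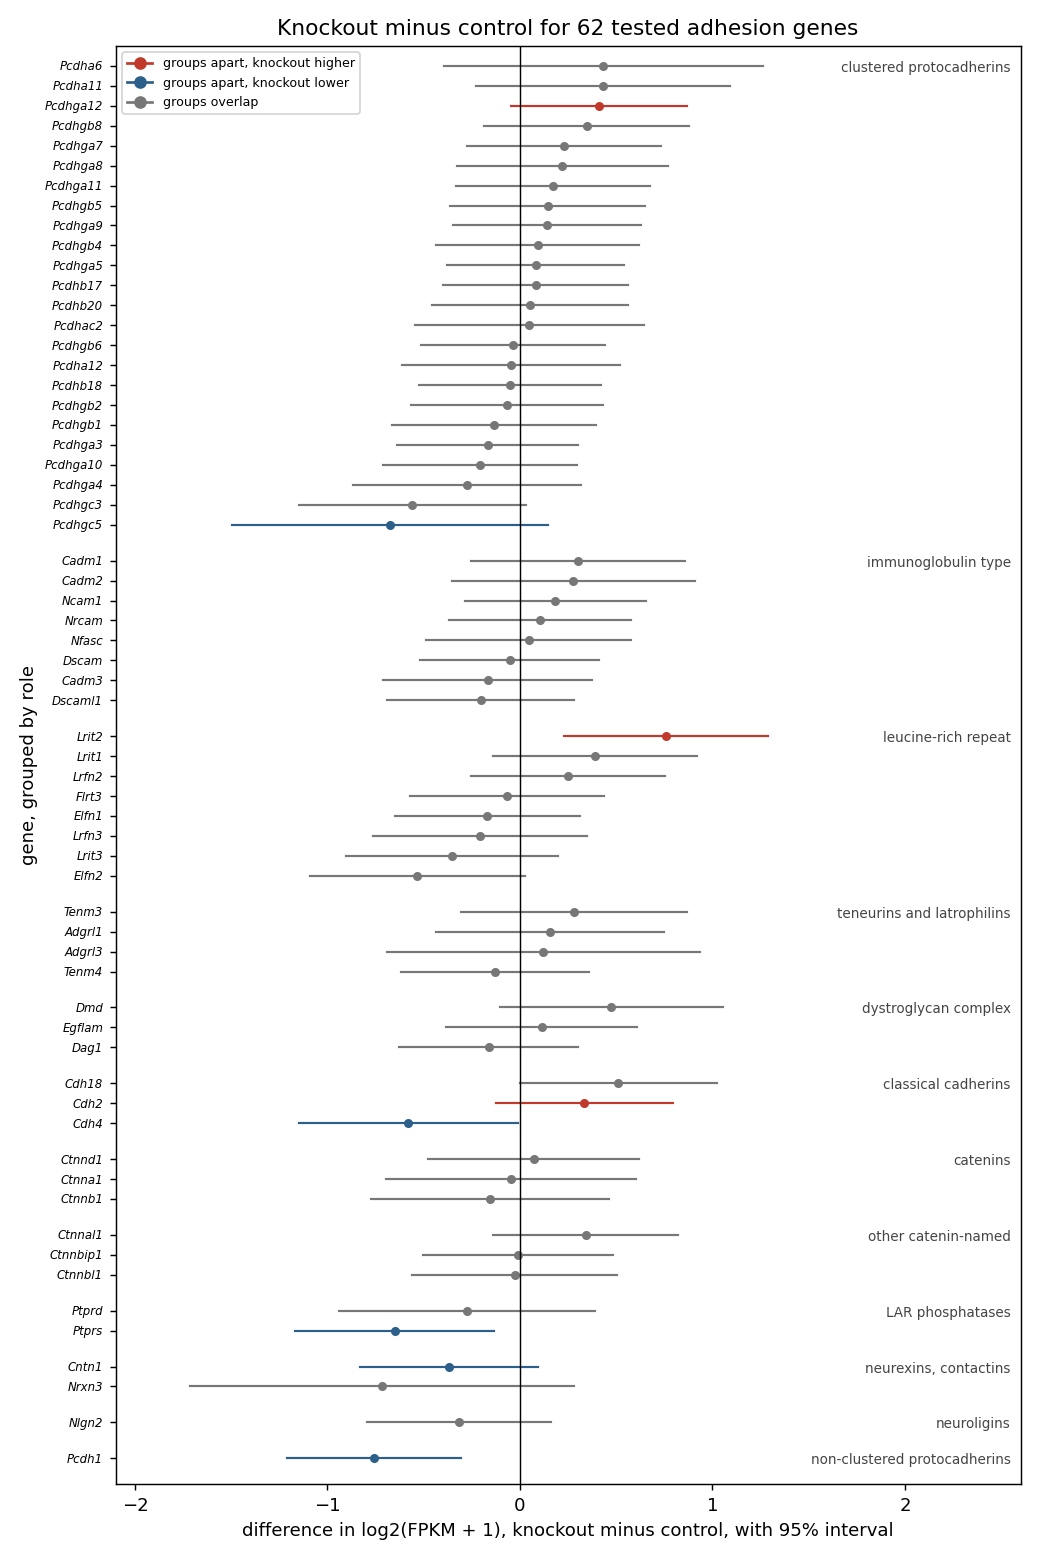
Difference in log2(FPKM + 1), knockout minus control, for 62 tested adhesion genes, grouped by role, with the 95% interval from limma. Red marks the 3 genes whose knockout libraries all lay above the controls, blue the 5 whose knockout libraries all lay below, and gray the genes whose groups overlap; the intervals of 4 genes exclude 0, and none passed the adjusted threshold.

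The order of abundance was steep. The 16 members with a mean above 10 FPKM held 76.7% of the summed level of all 74, while 47 lay between 1 and 10 FPKM and 11 below 1 FPKM. Dmd and Cadm3 came first with means of 74.5 and 73.5 FPKM over the 6 libraries and did not differ beyond their spread. They were followed by Lrit1 at 52.5, Cadm2 at 30.7, Lrit3 at 23.3, Lrit2 at 21.9 and Ncam1 at 20.9 FPKM. The next members, Elfn1, Egflam, Nrcam, Ctnna1 and Ctnnb1, lay between 16.8 and 19.7 FPKM, and their library values overlapped. Summed over all members, the level was 593 ± 16.2 FPKM in knockout and 563 ± 68.1 FPKM in control libraries (SD, n = 3 each), and the groups overlapped. By role, immunoglobulin-type molecules took 28.3% of the summed level in knockout and 29.7% in control libraries, and leucine-rich repeat proteins 23.1% in knockout and 21.5% in control libraries. The members outside the protocadherin clusters are long genes, with a median span of 174973 bases on GRCm38 against 24163 for the other genes of the table.

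**Figure D2:**
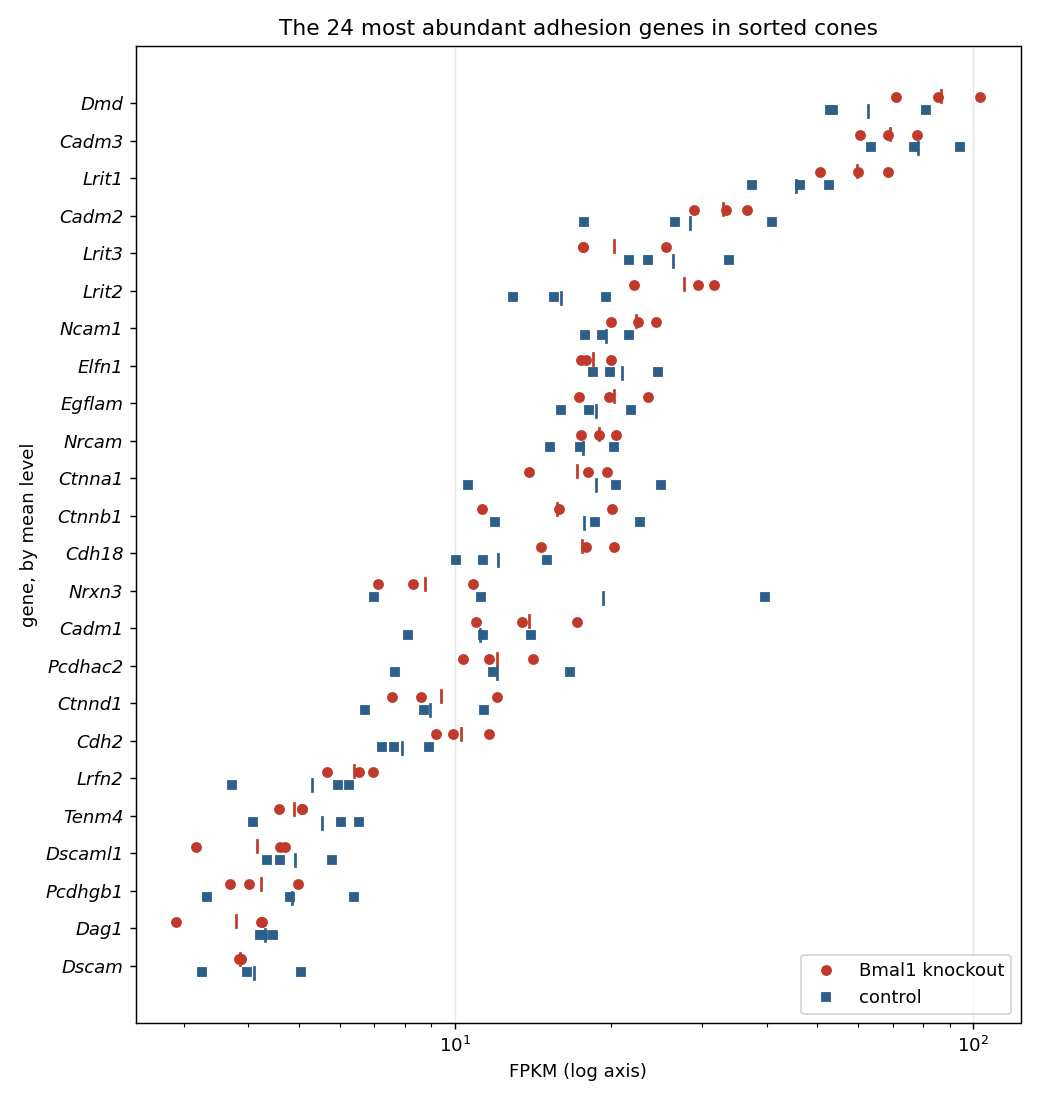
FPKM, on a log axis, of the 24 most abundant adhesion genes in order of their mean, with one point per library (red circles, knockout; blue squares, control) and a tick at each group mean. Dmd and Cadm3 lead, Nrxn3 has 1 control library at 39.6 FPKM far from the rest, and the groups overlap for all plotted genes other than Lrit2 and Cdh2.

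The Lrit and Elfn proteins, of the leucine-rich repeat group, sit in the photoreceptor terminal and reach across the cleft to the glutamate receptor machinery of bipolar cells: LRIT3 is needed for the TRPM1 channel to gather on ON bipolar dendrites, LRIT1 modulates transmission from cones, and ELFN1 and ELFN2 bind the bipolar receptor mGluR6. All 8 leucine-rich repeat members in the table were tested and none was called, with 1 of 8 non-overlapping, against 9.39% of all tested genes. Lrit2, their paralogue, had 31.6, 22.1 and 29.4 FPKM in knockout libraries, against 12.96, 15.5 and 19.6 FPKM in control libraries. Every knockout library thus lay above every control library, with a ratio of means of 1.73. The log2 difference was 0.76 ± 0.24 (SE), with an adjusted p of 0.649 in limma, and its 95% interval ran from 0.23 to 1.29.

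Lrit1 had 68.4, 59.8 and 50.7 FPKM in knockout libraries, against 37.3, 46.3 and 52.8 FPKM in control libraries. Knockout libraries 1 and 2 were the highest and knockout library 3 lay among the controls, for a log2 difference of 0.39 ± 0.24 and an adjusted p of 0.934, and 0.26 without control library 1. Lrit3 lay the other way, with 17.7, 17.7 and 25.5 FPKM in knockout libraries and 23.6, 21.6 and 33.7 FPKM in control libraries. Its highest value was in control library 3 and knockout library 3 exceeded control libraries 1 and 2. The log2 difference of Lrit3 was -0.35 ± 0.25 (adjusted p = 0.942), and -0.17 without control library 3.

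Lrit1 and Lrit2 are neighbours on the plus strand, at chr14:37054830-37064946 and chr14:37067929-37073743 on GRCm38, with 2982 bases between them. Cdhr1 follows 4113 bases further on the minus strand, and it averaged 178 ± 18.2 FPKM in knockout and 163 ± 54.6 FPKM in control libraries (SD, n = 3 each), with overlapping groups. Lrit3 is on another chromosome, at chr3:129787881-129804030. The promoter windows of the Lrit neighbours, RefSeq sequences on GRCm38.p6 covering 250 bases before to 50 after the annotated start, are shown because both hold the 6-letter core TAATCC that the photoreceptor factor CRX binds. The core stands in capitals, as GGATTA where it lies on the opposite strand.
Lrit1 (chr14:37054580-37054879, plus strand): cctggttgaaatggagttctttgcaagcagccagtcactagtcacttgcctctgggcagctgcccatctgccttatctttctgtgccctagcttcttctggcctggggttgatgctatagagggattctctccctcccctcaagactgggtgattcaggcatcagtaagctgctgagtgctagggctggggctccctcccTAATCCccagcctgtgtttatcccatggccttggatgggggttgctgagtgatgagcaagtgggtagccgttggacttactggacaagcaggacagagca
Lrit2 (chr14:37067779-37068078, plus strand): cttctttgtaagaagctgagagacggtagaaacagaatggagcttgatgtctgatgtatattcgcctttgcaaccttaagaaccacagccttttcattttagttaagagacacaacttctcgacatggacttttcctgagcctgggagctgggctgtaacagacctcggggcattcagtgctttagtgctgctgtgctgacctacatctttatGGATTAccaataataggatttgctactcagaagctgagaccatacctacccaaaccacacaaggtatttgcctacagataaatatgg
The core was found 50 bases before the start of Lrit1 and 37 before that of Lrit2 in the windows shown. Lrit2 has 2 overlapping windows, and both hold the core. With both strands searched, 3 of 33 members with a RefSeq window held it, or 9.09%, against 7.58% of the genes of the table that have a window and 8.14% of all genes with one. The match is a description of these letters only.

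Elfn1, best known from the synapse of rods with bipolar cells, had 17.5, 19.99 and 17.9 FPKM in knockout libraries and 24.7, 18.5 and 19.9 FPKM in control libraries. The groups overlapped, with a log2 difference of -0.17 ± 0.22 (adjusted p = 0.9996). Elfn2 was less abundant and had 2.098, 2.33 and 2.99 FPKM in knockout libraries, against 4.99, 2.46 and 5.03 FPKM in control libraries. Control library 2 lay among the knockouts and the other controls above them, for a log2 difference of -0.53 ± 0.26 (adjusted p = 0.897). The other 3, Lrfn2, Lrfn3 and Flrt3, gave log2 differences from -0.21 to 0.25. Together the 8 genes summed to 137 ± 8.32 FPKM in knockout and 121 ± 16.6 FPKM in control libraries (SD, n = 3 each).

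**Figure D3:**
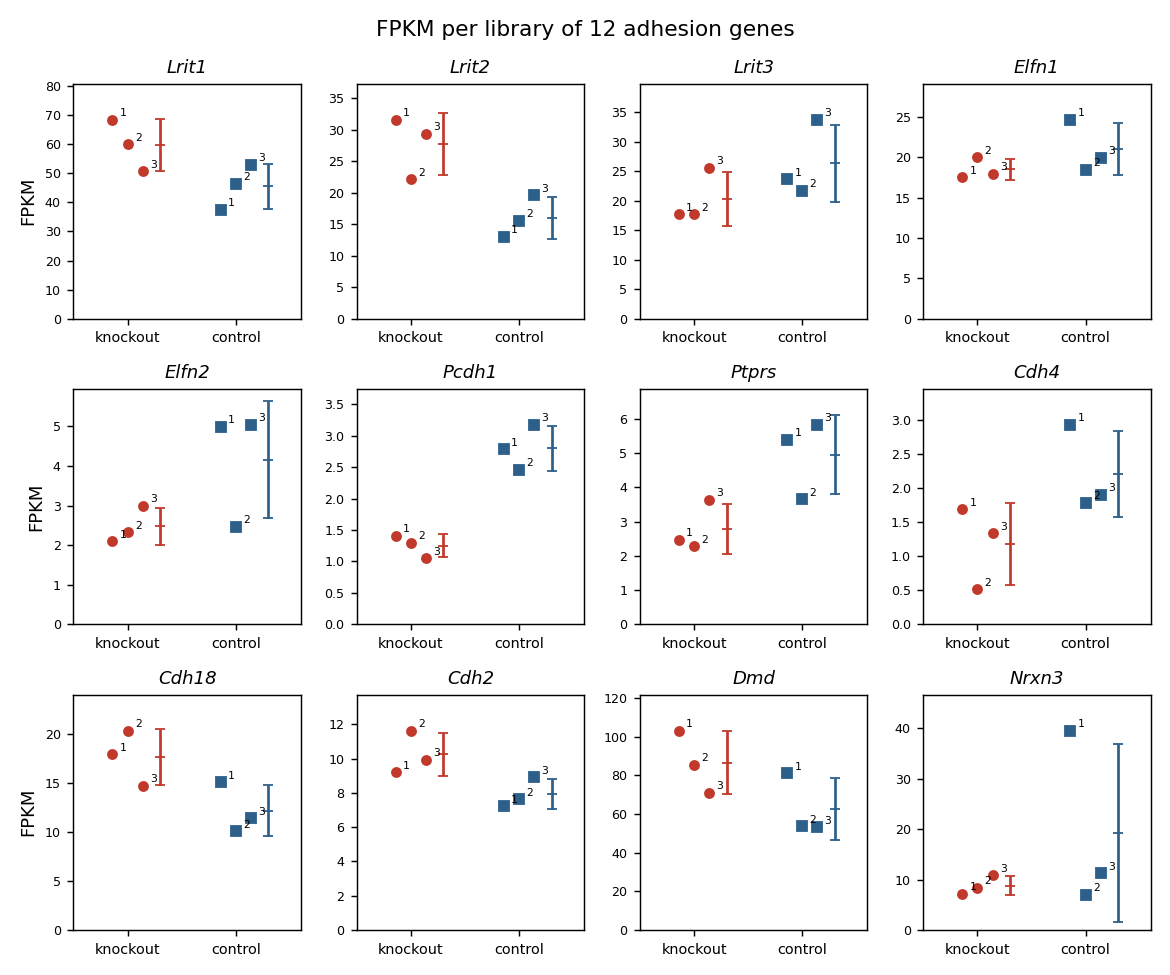
FPKM in each library of 12 adhesion genes (red circles, knockout; blue squares, control; points numbered by library; bars, mean ± SD, n = 3), each panel with its own axis from 0. The groups stand apart for Lrit2 and Cdh2, higher in knockout, and for Pcdh1, Ptprs and Cdh4, lower in knockout.

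Dystroglycan, the product of Dag1, is a laminin receptor in the terminal membrane that binds pikachurin (Egflam) outside and dystrophin (Dmd) inside. All 3 genes were in the table and tested, and none was called. Dmd, the most abundant of all members, had 103, 85.5 and 70.996 FPKM in knockout libraries, against 81.1, 53.5 and 52.98 FPKM in control libraries. Control library 1 lay above knockout library 3, and the other controls lay below all knockouts. The log2 difference was 0.47 ± 0.27, with an adjusted p of 0.909 in limma; without control library 1 it was 0.67 with an adjusted p of 0.338. Gene-level FPKM do not tell the full-length dystrophin transcript from the shorter ones that start inside the gene, which lies at chrX:82948870-85206141 on GRCm38.

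Egflam had 23.6, 17.4 and 19.8 FPKM in knockout and 16.04, 18.1 and 21.8 FPKM in control libraries. The groups were interleaved, and the log2 difference was 0.11 ± 0.23 (adjusted p = 0.9996). Dag1 was far lower per length, at 2.903, 4.22 and 4.24 FPKM in knockout libraries and 4.46, 4.202 and 4.28 FPKM in control libraries. Knockout library 1 had the lowest Dag1 value, while the other 5 libraries lay between 4.20 and 4.46 FPKM, and the log2 difference was -0.16 ± 0.21 (adjusted p = 0.9996), and -0.02 without that library. Summed, the complex reached 111 ± 17.6 FPKM in knockout and 85.5 ± 14.01 FPKM in control libraries (SD, n = 3 each), with overlapping groups.

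Of 31 partners of dystroglycan and dystrophin (sarcoglycans, syntrophins, dystrobrevins, laminins and the enzymes that build the sugar chains of dystroglycan), 19 were in the table and 17 were tested. None was called, and the median log2 difference was 0.05. None reached an unadjusted p under 0.05, where 5.49% of all tested genes did. The smallest p values belonged to Pomgnt2, a glycosyltransferase of that sugar chain, with 1.48 ± 0.673 FPKM in knockout and 1.895 ± 0.366 FPKM in control libraries, and to the syntrophin Sntb2, with 5.696 ± 0.259 FPKM in knockout and 4.82 ± 1.74 FPKM in control libraries (SD, n = 3 each). Dtnb, a dystrobrevin, was the most abundant at 14.8 ± 3.43 FPKM in knockout and 16.2 ± 4.599 FPKM in control libraries.

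Cdh2, or N-cadherin, is the main adhesion receptor of the outer limiting membrane; Cdh4, or R-cadherin, and Cdh18 are further members of the classical family. These 3 of 22 annotated genes had rows. Cdh18 had 17.9, 20.3 and 14.7 FPKM in knockout libraries, against 15.03, 10.04 and 11.4 FPKM in control libraries. Only control library 1 reached the knockout range, and it exceeded knockout library 3 alone. The log2 difference was 0.51 ± 0.24 (adjusted p = 0.897 in limma), and 0.66 with an adjusted p of 0.324 without control library 1. Cdh2 had 9.195, 11.6 and 9.94 FPKM in knockout libraries, against 7.23, 7.63 and 8.8997 FPKM in control libraries. All knockout libraries lay above all controls, by a log2 difference of 0.33 ± 0.21 with an adjusted p of 0.934.

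Cdh4 had 1.69, 0.513 and 1.34 FPKM in knockout libraries and 2.93, 1.78 and 1.91 FPKM in control libraries. Control libraries all lay higher, and the log2 difference was -0.58 ± 0.26 (adjusted p = 0.897), and -0.34 without knockout library 2. The 3 cadherins therefore did not share a direction: Cdh18 and Cdh2 were higher and Cdh4 lower in knockout means, and none passed the test. Cadherin tails bind beta-catenin (Ctnnb1) and p120-catenin (Ctnnd1), and alpha-catenin (Ctnna1) joins the complex to actin.

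Ctnna1 had 19.7, 13.9 and 18.1 FPKM in knockout libraries, against 10.6, 20.5 and 24.99 FPKM in control libraries. Ctnnb1 had 20.1, 11.3 and 15.9 FPKM in knockout libraries, against 11.9, 18.6 and 22.8 FPKM in control libraries. Both were low in control library 1 and in knockout library 2 and high in control library 3, so the groups overlapped. Their log2 differences were -0.05 ± 0.30 for Ctnna1 (adjusted p = 0.9996) and -0.15 ± 0.28 for Ctnnb1 (adjusted p = 0.9996), and both turned positive without control library 3, at 0.19 for Ctnna1 and 0.04 for Ctnnb1. Exons of Ctnnb1 overlap those of Ulk4 on the opposite strand over 14.6% of their length, and 61.2% of the exon length of Ctnnd1 is shared with the annotated gene Gm28635. Gm28635 lies on the same strand as Ctnnd1, so the split of their reads is uncertain however strand was used; for Ctnnb1 and Ulk4 it is uncertain because the use of strand is unstated in the sources used here. Ctnnd1 gave a log2 difference of 0.07 ± 0.25. The 3 genes with catenin in their names but outside the junction core, Ctnnbl1, Ctnnbip1 and Ctnnal1, gave log2 differences from -0.03 to 0.34.

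A list of 38 symbols named partners at cell junctions and in apical polarity (tight junction, Crumbs and Usher complex genes), with Mpp5 also entered under its other name Pals1; 31 genes of it were in the table and 30 were tested. None was called, and the median log2 difference was 0.03. At an unadjusted p under 0.05, 1 of the 30 was lower, where 3.96% of all tested genes were. That one was Magi2, a scaffold of junctions and synapses, with 4.64 ± 0.297 FPKM in knockout and 7.95 ± 1.75 FPKM in control libraries (SD, n = 3 each; adjusted p = 0.748 in limma). The related Magi1 came next, at 2.28 ± 1.47 FPKM in knockout and 4.97 ± 3.49 FPKM in control libraries. Mpp4, a photoreceptor scaffold of the Crumbs and presynaptic complexes, was the most abundant, at 131 ± 22.5 FPKM in knockout and 115 ± 17.3 FPKM in control libraries.

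The alpha, beta and gamma protocadherin clusters lie side by side on chromosome 18, and each neuron transcribes a few of their variable first exons, which in the alpha and gamma clusters are spliced to shared constant exons. The table held 31 clustered genes, 5 of 13 annotated alpha, 6 of 22 beta and 19 of 21 gamma genes together with Pcdhgb8, and 24 were tested. None was called, 2 did not overlap between groups, where 9.39% of all tested genes did not, and 14 of 24 differences were positive, against 47.4% over all tested genes. Alpha genes summed to 17.9 ± 1.66 FPKM in knockout and 16.6 ± 5.23 FPKM in control libraries, beta genes to 6.497 ± 0.2597 FPKM in knockout and 6.55 ± 1.94 FPKM in control libraries and gamma genes to 38.7 ± 3.52 FPKM in knockout and 40.8 ± 7.02 FPKM in control libraries (SD, n = 3 each). The groups overlapped in all 3 sums. In the annotation, alpha genes share 38.0% to 53.6% of their exon length with other alpha genes and the 19 gamma genes with a position share 27.8% to 66.7% with other gamma genes, so levels of single alpha and gamma genes are uncertain.

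Pcdhac2, the last variable exon of the alpha cluster, led with 10.4, 14.2 and 11.7 FPKM in knockout and 7.67, 11.9 and 16.6 FPKM in control libraries. Its spread among controls was wide and its means were nearly equal, for a log2 difference of 0.05 ± 0.27. Pcdhga12 had 3.49, 2.65 and 3.49 FPKM in knockout libraries, against 1.97, 2.03 and 2.47 FPKM in control libraries. All knockout libraries lay above all controls, by a log2 difference of 0.41 ± 0.21 (adjusted p = 0.897 in limma).

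The C-type genes at the end of the gamma cluster lay the other way. Pcdhgc3 had 1.22, 2.15 and 3.14 FPKM in knockout libraries and 4.33, 2.46 and 4.02 FPKM in control libraries, which overlap, with a log2 difference of -0.56 ± 0.27 (adjusted p = 0.897), and -0.33 without knockout library 1. Pcdhgc5 had 0.388, 0.4098 and 0.477 FPKM in knockout libraries, against 0.527, 3.93 and 0.568 FPKM in control libraries. Though the groups did not overlap, the other controls were close to the knockouts and control library 2 alone was high; the log2 difference was -0.68 ± 0.38 (adjusted p = 0.909), and -0.12 without that library. A single library also set the knockout mean of Pcdha6, at 4.25 FPKM in knockout library 1 against 1.25 and 0.441 FPKM in the others and 0.580, 1.29 and 0.909 FPKM in control libraries.

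**Figure D4:**
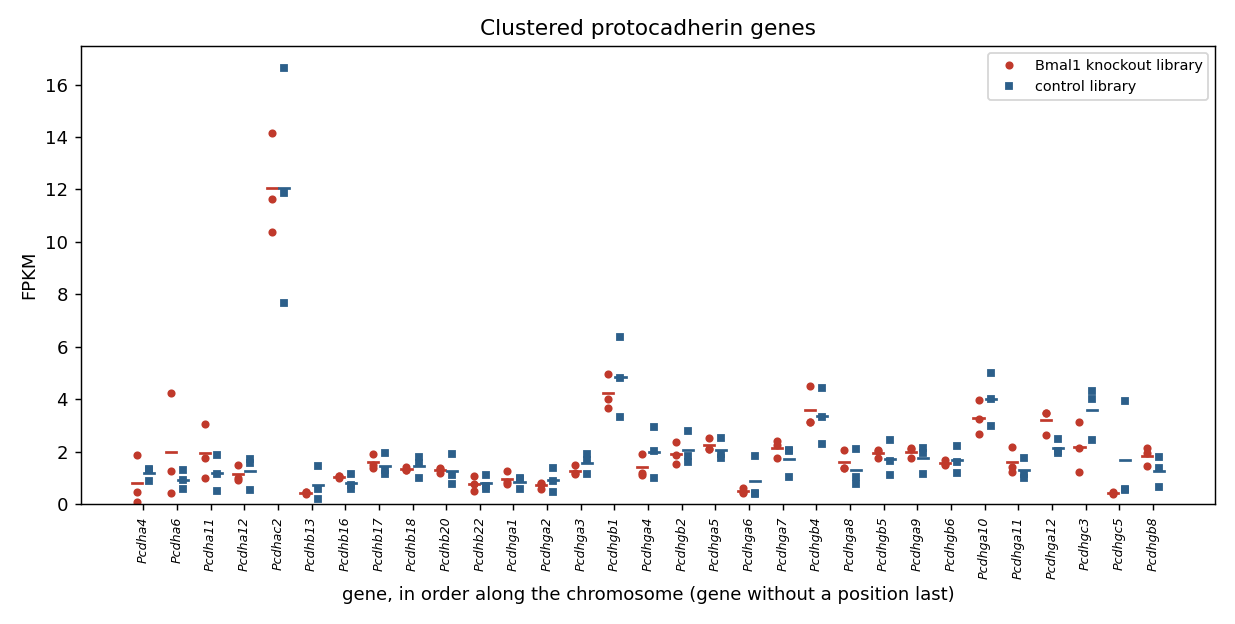
FPKM of the 31 clustered protocadherin genes in each library, in order along chromosome 18 and with Pcdhgb8 last (red circles, knockout; blue squares, control; bar, group mean). Pcdhac2 stands above the rest at about 12.1 FPKM in both groups, and Pcdhgc5 and Pcdha6 each have 1 library far from the others.

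Among the non-clustered protocadherins, homophilic receptors each made from a gene of their own, Pcdh1 and Pcdh9 had rows and Pcdh1 was tested. Pcdh1 (chr18:38185914-38212053, minus strand) had 1.41, 1.29 and 1.05 FPKM in knockout libraries, against 2.78, 2.45 and 3.17 FPKM in control libraries. Each knockout value was below each control value, and the ratio of means was 0.446. On the log2 scale the difference came to -0.76 ± 0.21 (95% interval -1.21 to -0.31), at an adjusted p of 0.486; without control library 1 it was -0.76. The markers Apoe, Clu and Gng13 lay in the same direction, and the other tested markers of their lists lay both ways. Of 7 tested Müller glia markers 3 had positive and 4 negative log2 differences, with a median of -0.04. The 7 tested bipolar cell markers also had 3 positive and 4 negative ones, with a median of -0.01. Lrtm1, Otx2 and Trpm1 were the positive ones, and Gng13, Pcp2, Prkca and Cabp5 the negative ones. The part of such cells in the lower knockout values of Pcdh1, Ptprs and Cdh4 was not tested. In bulk libraries, fewer cells of a type that carries such a gene and less RNA of it per cell cannot be told apart.

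Cadm1 to Cadm3 (SynCAM or nectin-like proteins) bind each other across synapses, and Ncam1 and Nrcam are neural cell adhesion molecules. Of 15 annotated genes 9 had rows and 8 were tested, with none called. The groups overlapped for all 8, where they did not for 9.39% of all tested genes. Cadm3 had 60.5, 77.9 and 68.4 FPKM in knockout libraries, against 76.8, 63.6 and 94.02 FPKM in control libraries. Control library 3 was highest and knockout library 1 lowest, for a log2 difference of -0.17 ± 0.25 (adjusted p = 0.9996 in limma).

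Cadm2 had 33.4, 28.9 and 36.5 FPKM in knockout libraries, against 40.8, 17.8 and 26.6 FPKM in control libraries. The controls held both the highest and the lowest value. The log2 difference of Cadm2 was 0.28 ± 0.29 (adjusted p = 0.986), and without control library 1 it was 0.57 (adjusted p = 0.431), where without control library 2 it was -0.01. Cadm1 had 10.995, 17.2 and 13.4 FPKM in knockout libraries and 8.11, 11.3 and 14.04 FPKM in control libraries, with a log2 difference of 0.30 ± 0.26 (adjusted p = 0.972), and 0.11 without control library 1.

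Ncam1 and Nrcam were the steadiest of the 16 members above 10 FPKM. Ncam1 had 20.04, 24.4 and 22.6 FPKM in knockout and 17.8, 19.2 and 21.6 FPKM in control libraries, a log2 difference of 0.18 ± 0.22 (adjusted p = 0.9985). Nrcam had 17.5, 20.4 and 18.99 FPKM in knockout and 17.5, 15.3 and 20.2 FPKM in control libraries, a log2 difference of 0.10 ± 0.22 (adjusted p = 0.9996). Their highest and lowest libraries differed 1.37-fold and 1.34-fold. The remaining tested genes of the family, Dscam, Dscaml1 and Nfasc, averaged 2.09 to 4.54 FPKM, with log2 differences from -0.20 to 0.04.

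The RefSeq promoter windows of Cadm2 and Cadm3 are shown for the elements they hold. Capitals mark CACGTG, the palindromic E-box bound by BMAL1 with CLOCK, in Cadm2, and TAATCC in Cadm3.
Cadm2 (chr16:67620859-67621158, minus strand): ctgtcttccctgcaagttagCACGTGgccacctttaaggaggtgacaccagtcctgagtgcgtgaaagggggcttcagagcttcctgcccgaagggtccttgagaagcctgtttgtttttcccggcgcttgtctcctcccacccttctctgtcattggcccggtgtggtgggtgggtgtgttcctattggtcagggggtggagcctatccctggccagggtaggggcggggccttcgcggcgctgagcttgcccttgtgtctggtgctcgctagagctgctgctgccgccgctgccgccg
Cadm3 (chr1:173367646-173367945, minus strand): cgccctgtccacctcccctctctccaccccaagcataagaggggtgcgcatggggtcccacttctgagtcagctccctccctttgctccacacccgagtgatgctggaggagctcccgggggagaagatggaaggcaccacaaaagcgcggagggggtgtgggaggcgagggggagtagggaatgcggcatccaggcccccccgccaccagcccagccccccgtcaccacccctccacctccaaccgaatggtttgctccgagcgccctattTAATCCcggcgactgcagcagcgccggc
The E-box lies 230 bases before the start of Cadm2, and TAATCC lies 22 bases after that of Cadm3.

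Neurexins are presynaptic receptors that bind neuroligins, latrophilins and other partners across the cleft, and the LAR-type phosphatases Ptprd and Ptprs are presynaptic organisers of the same kind. Nrxn3, the most abundant of them here, had 7.12, 8.31 and 10.8 FPKM in knockout libraries, against 39.6, 6.98 and 11.2 FPKM in control libraries. Control library 1 stood far above all others, the library that also held the Stmn2 value given above, and the other 5 overlapped. The log2 difference was -0.72 ± 0.46 (adjusted p = 0.934 in limma), and -0.04 without control library 1. Summed over 3 ganglion cell markers, of a list of 9, that library had 23.9 FPKM, against 2.07 to 2.32 FPKM in knockout and 2.63 and 2.99 FPKM in the other control libraries. Stmn2 gave 21.1 FPKM of that sum. The ganglion cell marker Rbpms was also highest in control library 1, at 1.94 FPKM. It had 0.783 to 0.979 FPKM in knockout and 0.581 and 0.804 FPKM in the other control libraries. The ganglion cell marker Nefl had 0.890 FPKM in control library 1, below the other control libraries. Of 9 amacrine markers 2 had rows: Pax6 had 0.961, 1.62 and 1.06 FPKM in knockout libraries, against 6.65 FPKM in control library 1 and 0.684 and 2.22 FPKM in the other control libraries, whereas Slc6a9 in control library 1, at 4.58 FPKM, lay below the other control libraries. The part of such cells in the Nrxn3 value was not tested.

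Cntn1, a contactin, averaged 1.55 ± 0.0636 FPKM in knockout and 2.32 ± 0.486 FPKM in control libraries (SD, n = 3 each). Every knockout library had less Cntn1 than every control library, by a log2 difference of -0.37 ± 0.21 (adjusted p = 0.913). Nlgn2, a neuroligin, averaged 1.97 ± 0.165 FPKM in knockout and 2.74 ± 0.681 FPKM in control libraries, with a log2 difference of -0.32 ± 0.22 and overlapping groups. Ptprd averaged 1.004 ± 0.172 FPKM in knockout and 1.61 ± 1.25 FPKM in control libraries, and its highest value, 2.97 FPKM, was in control library 1.

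Ptprs (chr17:56412426-56476483, minus strand) had 2.46, 2.28 and 3.64 FPKM in knockout libraries, against 5.397, 3.65 and 5.83 FPKM in control libraries. The highest knockout value and the lowest control value were nearly equal, and the ratio of means was 0.563. On the log2 scale the difference came to -0.65 ± 0.24 (95% interval -1.17 to -0.13), at an adjusted p of 0.788 in limma. Ptprs has 2 RefSeq promoter windows. The window printed below is shown because it holds CACGTG, in capitals, at 3 places, and the other window does not hold it.
Ptprs (chr17:56476431-56476730, minus strand): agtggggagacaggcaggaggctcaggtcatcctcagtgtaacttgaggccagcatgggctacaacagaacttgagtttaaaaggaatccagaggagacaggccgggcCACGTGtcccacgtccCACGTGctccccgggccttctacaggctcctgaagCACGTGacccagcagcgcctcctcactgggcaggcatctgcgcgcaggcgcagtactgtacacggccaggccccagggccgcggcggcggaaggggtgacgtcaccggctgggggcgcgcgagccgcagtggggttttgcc
The matches start 142, 126 and 91 bases before the annotated start of the printed window. In all, 2 of the 33 members with a window held CACGTG, or 6.06%, against 12.2% of genes of the table and 8.09% of all genes with one. At least 3 matches occurred in 0.0883% of all windows, 29 of 32851, and in 0.167% of those of genes in the table. That cut-off is the count found in Ptprs itself, so these shares do not test its matches. The CACGTG matches in Ptprs and Cadm2 describe these letters only, and binding by BMAL1 was not tested. The REV-ERB and ROR element, searched on both strands, was in the window of 0 of 33 members and of 0.174% of genes of the table, which says only that these letters are not in those windows.

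Teneurins and latrophilins, which bind each other across synapses, had 6 of 8 annotated genes in the table, and 4 were tested with none called. Tenm4 averaged 4.91 ± 0.289 FPKM in knockout and 5.55 ± 1.304 FPKM in control libraries, Adgrl1 4.101 ± 0.873 FPKM in knockout and 3.73 ± 1.77 FPKM in control libraries and Tenm3 3.85 ± 1.02 FPKM in knockout and 3.08 ± 1.28 FPKM in control libraries (SD, n = 3 each). Their log2 differences were -0.13 ± 0.22, 0.15 ± 0.27 and 0.28 ± 0.27, each within the spread. Adgrl3, at 1.36 ± 1.05 FPKM in knockout and 1.203 ± 0.937 FPKM in control libraries, varied 18.3-fold between its highest and lowest library.

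Of 47 other synaptic adhesion and scaffold partners, 22 were in the table and 21 were tested. None was called, and the median log2 difference was 0.10. At an unadjusted p under 0.05, 1 of the 21 was higher and 1 lower, where 1.53% and 3.96% of all tested genes were. Clstn3, a calsyntenin that binds neurexins, was lower in every knockout library, with 1.001 ± 0.403 FPKM in knockout and 2.76 ± 0.802 FPKM in control libraries (SD, n = 3 each; adjusted p = 0.466 in limma). Ppfia2, a liprin that binds the LAR-type phosphatases, was higher in every knockout library, with 19.96 ± 2.96 FPKM in knockout and 13.5 ± 3.196 FPKM in control libraries (adjusted p = 0.897). Dlg4, the scaffold PSD-95, was the most abundant, at 142 ± 57.7 FPKM in knockout and 129.9 ± 24.6 FPKM in control libraries.

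Of 18 proteases that cut adhesion molecules at the membrane, and their subunits, 10 were in the table and all of these were tested. None was called, and the median log2 difference was 0.04. At an unadjusted p under 0.05, 2 of the 10 were lower, where 3.96% of all tested genes were. Adam15, a disintegrin metalloprotease, had 1.97, 2.16 and 1.181 FPKM in knockout libraries, against 5.07, 4.78 and 3.56 FPKM in control libraries. All knockout values lay below all control values, by a log2 difference of -0.99 ± 0.23 (adjusted p = 0.269). Psenen, a gamma-secretase subunit and the most abundant of the list, had 6.53, 8.695 and 20.8 FPKM in knockout and 17.2, 21.1 and 18.1 FPKM in control libraries, with knockout library 3 among the controls.

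The 11 members under the filter had means from 0.516 FPKM for Tenm2 to 0.995 FPKM for Pcdha4. The others were Pcdhb16, Pcdh9, Pcdhga1, Pcdhga2, Pcdhb22, L1cam, Pcdhga6, Adgrl2 and Pcdhb13. Pcdha4 in knockout library 1 and Tenm2 in control library 3 were listed at 0.1 FPKM, the lowest value in the table.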

How the data were processed

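Sequencing was paired-end on poly(A) RNA, per the labels' protocols, in 3 knockout and 3 control libraries of sorted cones. The FPKM values are in a single table as the authors deposited it, each library in a column of its own. Tools listed in the submitters' processing notes are TopHat2 (2.1.0), Cufflinks (2.2.1), DESeq2 and HTSeq; the listed build is mm10. Their order and roles, the annotation and the use of strand are unstated in the sources used here. No value lies below 0.1 FPKM. Read depth cannot be had from FPKM and is unknown, so there are no counting intervals, and replicate spread is the measure of precision.

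The genotype label set each group and the title each replicate number. For 15 genes a date stood in place of the symbol, which was looked up by gene ID. Positions come from GENCODE on GRCm38, the assembly of mm10 (73 of 74 members matched). Log2(FPKM + 1) was compared for all 8627 genes averaging 1 FPKM or more, with limma 3.58.1 in R 4.3.3 (eBayes with a variance trend, two-sided) and Benjamini-Hochberg adjustment over those genes at a threshold of 0.05, after a check on simulated data. On this scale the change of low genes is understated. The values of 1 tested member are not reported here, though it is in the counts. Promoter windows are RefSeq's, matched by symbol for 33 of 74 members. Python 3.11.15 with pandas 2.3.3 and numpy 2.4.6 made the tables, and matplotlib 3.10.9 the figures.

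Full values are given for the 10 tested members of smallest p, the 12 most abundant, and members with known roles at photoreceptor synapses. Members whose groups do not overlap, or that lead their role, were added after their values were seen. Each partner list is shown by its 2 genes of smallest p and its most abundant one. The members and lists were chosen with earlier results of these data known. The 17 alternatives changed the pseudocount, filter, scaling, variance model, library weights or pairing, added a rod marker covariate, or left out 1 library.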

Additional observations from a re-analysis of the deposited data

How the results depend on the processing

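No member was called under any of the 17 alternatives in limma; the smallest adjusted p of a member ranged from 0.167 with array weights to 1. With array weights, 23 genes of the whole table were called, 11 higher and 12 lower in knockout, against 9, 4 and 5. There, 10 members had an unadjusted p under 0.05, against 4. That is 15.9% of the members, where 11.2% of all tested genes had one. With a mean of at least 5 FPKM, 13 of 20 members had a positive difference, against 32 of 63. That is 65%, where 52.2% of all genes tested in that setting were positive. An unadjusted p under 0.05 was found for 2 members, or 10%, where 5.14% of those genes had one. Leaving out 1 library at a time gave 6 to 13 called genes, 1 to 5 higher and 5 to 8 lower. Between 2 and 8 members then had an unadjusted p under 0.05. Without control library 1 there were 8, or 12.7%, beside 10.1% of all tested genes. Without control library 2 there were 7, or 11.1%, beside 5.42%. Without control library 3 or knockout library 2 there were 2, or 3.17%, beside 6.56% and 3.12% of all tested genes. Signs turned for Cadm2 without control library 2, for Ctnna1 without knockout library 2 (0.0912), control library 2 (0.0557) or control library 3, and for Ctnnb1 without knockout library 2 or control library 3 (0.0389). Over all single libraries left out, the log2 difference ranged from -0.0086 to 0.5699 for Cadm2, from -0.3893 to 0.1928 for Ctnna1 and from -0.4 to 0.0542 for Ctnnb1, and the cause was not tested. The other 377 of 383 values of named members kept their direction and side of the threshold. Same-numbered libraries did not deviate together (r of -0.118, -0.0853 and -0.0336), so the numbers were not used as pairs in the main fit. With 3 libraries per group this check cannot show whether same-numbered samples were handled together. With the replicate block, 1 gene was called higher and 0 members were called. There, 4 members, or 6.35%, had an unadjusted p under 0.05, beside 5.67% of all tested genes. Unknown depth limits what can be said of members near 1 FPKM.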

Other observations

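The ratio of Lrit2 to Lrit3, chosen after the values were seen and not tested, was 1.79, 1.25 and 1.15 in knockout libraries and 0.550, 0.717 and 0.580 in control libraries. A ratio within a library does not depend on the scaling of that library. Of all 1953 pairs of tested members, 347, or 17.8%, had ratios that did not overlap between the groups, so a pair of this kind is not rare. The ratio of Lrit2 to its neighbour Lrit1 overlapped, at 0.462, 0.370 and 0.580 in knockout libraries and 0.347, 0.335 and 0.371 in control libraries, as did that of Ctnna1 to Ctnnb1, at 0.978, 1.23 and 1.14 in knockout libraries and 0.887, 1.10 and 1.10 in control libraries. Between the highest and lowest libraries, Ctnna1 differed 2.36-fold and Ctnnb1 2.02-fold.

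Control library 3 held the highest value of 26 members and control library 1 that of 22, while the lowest was in control library 2 for 24 members and in control library 1 for 23. Knockout library 3 held the highest value of 4 members and the lowest of 3. These counts are out of 74 members. Over all genes of the table, control library 3 held the highest value of 33.5% and control library 1 that of 17.7%. The lowest value was in control library 2 for 17.6% of all genes and in control library 1 for 37.2%. Knockout library 3 held the highest value of 10.2% and the lowest of 6.64% of all genes.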
